A study of Homo sapiens with 8 samples.

Results

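The nuclear receptor genes were examined in peak lists of H3K27ac, an acetylation of the histone H3 tail that marks active promoters and enhancers. The set held 43 of the 19689 protein-coding genes of the GENCODE annotation, chosen by family membership without HNF4A, HNF4G and the X-linked receptors. The rule itself used no measured value, but earlier results of these data were known when the members were chosen. Each gene was followed over its body plus 20 kb on either side (hg38). These windows held 530 of the 143733 intervals obtained when touching or overlapping peaks of the 6 libraries were merged. The chromatin came from HCEC-1CT, an established line of immortalized human colonic epithelial cells (HCECs), as 3 WT and 3 CBP KO libraries, here called CREBBP-KO. CREBBP, also called CBP, is an acetyltransferase that deposits this mark. Both groups were grown in the same medium, which contained serum, EGF, insulin and hydrocortisone, so a ligand of the glucocorticoid receptor was present throughout. The methods describe the CREBBP-KO cells as monoclonal and, for the knockout lines in general, as pools of several clones. The sample titles number 3 libraries per genotype and do not say from which clones they came. The 3 libraries of CREBBP-KO may trace back to few edited cells.

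Nuclear receptors are transcription factors that bind DNA directly, and many of them change their activity when a steroid, retinoid, fatty acid, bile acid or other small lipid occupies the ligand pocket. Ligand-bound receptors recruit coactivators, among them CREBBP and its paralogue EP300, whereas receptors without ligand often hold corepressors. In colonic epithelium the family is known for its parts in glucocorticoid, vitamin D and lipid responses, and for the clock. The comparison asked how acetylation over the genes that encode these receptors was arranged in HCECs, and where its rank differed when CREBBP was absent.

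Peak height was read as the fold enrichment given by the peak caller. Folds were compared as percentiles within their own library, where 100 is the highest peak of that list. Ranks of this kind cannot show a change in the overall level of the mark, so rises and falls below are changes in rank. The paper reports a moderate H3K27ac decrease in CREBBP-KO by mass spectrometry, of borderline significance, and a small significant one by immunofluorescence. In its read-based test nearly all H3K27ac peaks were unaffected, under thresholds unlike those used here. The lists held 86163 to 93567 peaks in WT and 99008 to 111697 peaks in CREBBP-KO, and their depth in reads is unknown. They hold no measurement of CREBBP protein or sequence, so the knockout itself was not checked here. Several markers of the labelled cell type were without acetylation. Of 10 colonic epithelial markers, 5 had a promoter peak in each WT library and 3 to 4 in each CREBBP-KO library. No library had one at CDX1, CDX2, VIL1, KRT20 or CDH1. Over all protein-coding genes, 32.3% had no promoter peak in any library and 61.7% had one in all 6. The 3 with a peak throughout, KRT8, EPCAM and MUC2, were higher in CREBBP-KO without overlap (1 of them when ranked among promoters). KRT18 had a peak in the 3 WT and 2 CREBBP-KO libraries, and LGALS4 in the 3 WT libraries alone. All 8 mesenchymal markers had a promoter peak in all 6 libraries, and in 6 of these the CREBBP-KO percentiles lay above the WT ones, against 45.0% of all promoters (3 when ranked among promoters, background 21.7%). Of 6 blood and endothelial markers, 5 had no promoter peak in any library and PECAM1 had one in the CREBBP-KO libraries alone. The part of these marker differences in the results below was not tested.

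A promoter peak, meaning a peak within 1 kb of a protein-coding transcript start, was present in all 6 libraries for 29 of the 43 receptor genes (67.4%), against 61.7% of all protein-coding genes. Another 10 receptor genes (23.3%) had no promoter peak in any library, against 32.3% of all protein-coding genes. The remaining 4 had one in some libraries. The WT libraries had a peak at 32, 33 and 30 receptor promoters and the CREBBP-KO libraries at 33, 32 and 32 (two-sided exact permutation test, p = 0.9). With 3 libraries against 3, the exact permutation test cannot give a p below 0.1. The windows as a whole held 365, 352 and 340 peaks in WT and 443, 413 and 388 in CREBBP-KO (exact permutation test, p = 0.1). Taken as a share of the list, the windows held 0.388% of WT peaks (SD 0.00806, 3 libraries) and 0.394% of CREBBP-KO peaks (SD 0.00243, 3 libraries), with overlap between the genotypes (p = 0.3, exact permutation test).

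**Figure D1:**
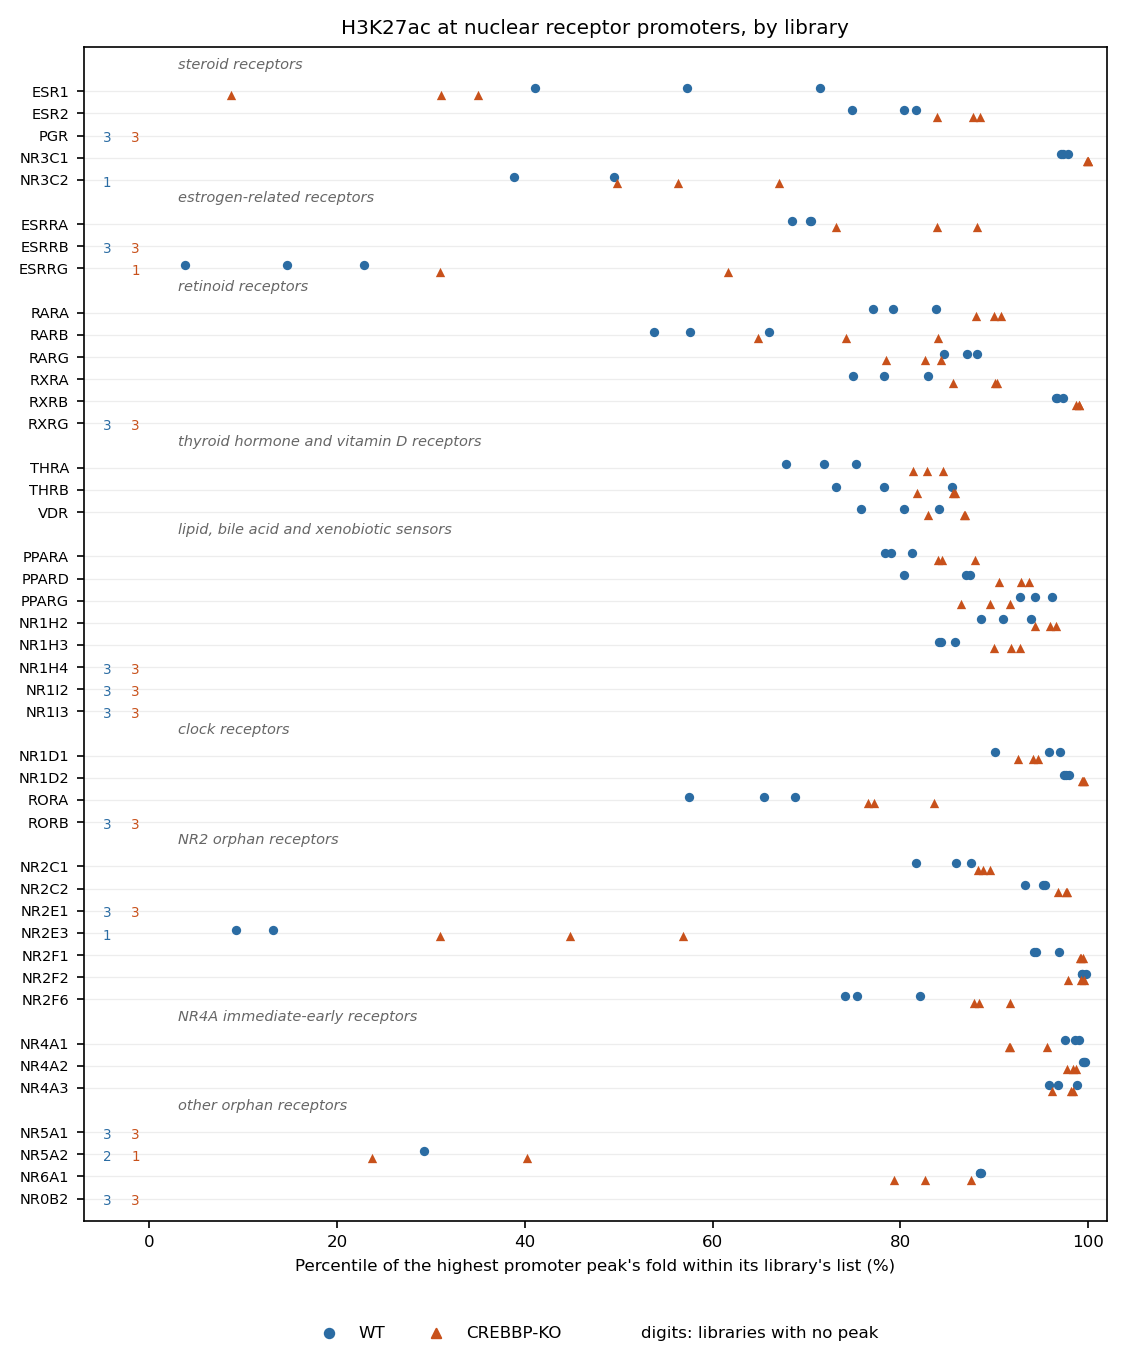
The percentile of the highest promoter peak within its own library's list (x axis, %) is drawn for each receptor gene, grouped by role, with circles for the 3 WT libraries and triangles for the 3 CREBBP-KO libraries. Coloured digits at the left count libraries with no promoter peak, which is all 6 for 10 genes, and NR3C1, NR2F2 and NR4A2 sit near the right edge in every library.

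The promoters without a peak in any library were those of PGR (progesterone receptor), NR1H4 (the bile acid receptor FXR), NR1I2 and NR1I3 (the xenobiotic receptors PXR and CAR), NR0B2 (the corepressor SHP), NR5A1 (a regulator of steroid-producing tissues), NR2E1 (a receptor of neural stem cells), ESRRB, RXRG and RORB. For 5 of these, PGR, ESRRB, RXRG, RORB and NR2E1, no library had a peak anywhere in the window. NR5A1 had a single interval, present in 1 CREBBP-KO library at percentile 26.9. The windows of NR1H4, NR1I3 and NR0B2 held taller peaks, all of them at promoters of neighbouring genes. At NR0B2, for example, an interval 8.0 kb upstream overlapped the promoter of NUDC and stood at percentiles 87.3, 85.7 and 90.9 in WT and 96.3, 96.7 and 97.0 in CREBBP-KO.

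The 4 genes with a promoter peak in some libraries had low ones. For NR3C2, the mineralocorticoid receptor, the WT percentiles were 38.8 and 49.5 with no peak in the other library, and the CREBBP-KO percentiles 56.3, 67.1 and 49.8. NR2E3, a photoreceptor factor, had 9.2 and 13.2 in 2 WT libraries, at different starts, and 56.8, 31.0 and 44.7 in CREBBP-KO. In both genes every CREBBP-KO value lay above every WT value that exists. ESRRG, an estrogen-related receptor of oxidative metabolism, had promoter percentiles of 14.7, 22.8 and 3.8 in WT and of 61.7 and 31.0 in 2 CREBBP-KO libraries, at different starts. NR5A2, a receptor of intestinal crypts and liver, had a peak in 1 WT library at 29.2 and in 2 CREBBP-KO libraries at 40.2 and 23.7.

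Among the 29 receptor promoters with a peak in all 6 libraries, the CREBBP-KO percentiles lay above the WT ones without overlap for 17 (58.6%), against 45.0% of the 12147 protein-coding promoters with such peaks. They lay below without overlap for 6 (20.7%), against 7.71% of all such promoters, and overlapped for the other 6. The peak taken was the highest at any coding start of the gene, library by library, and for RARA, RARG, THRA, PPARA and RORA the 6 values are not those of any 1 merged interval. The median difference was 4.07 percentile points over the receptors and 3.26 over all promoters. Because the CREBBP-KO lists are longer and promoters rank higher in them as a class, the ranking was repeated among promoters only, an alternative chosen after seeing the data. The split then became 6 above and 6 below with 17 overlapping, against 21.7% above and 20.5% below over all promoters. The 6 promoters below WT were the same under both rankings: ESR1, RARG, PPARG, NR4A1, NR4A2 and NR6A1. The 6 above WT under both were NR3C1, RXRB, NR1H3, NR1D2, NR2F1 and NR2F6.

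Rank differences were also tested over merged intervals with limma, on normal scores of the within-library rank among the 34864 tested intervals. A shift of 1 is 1 SD of these scores, which near the top of a list spans few percentile points. An interval entered the test when it had a peak in all 6 libraries and a fold of at least 5 in all 3 libraries of a genotype, which 155 of the 530 receptor intervals did (29.2%, against 24.3% of all intervals). At an adjusted p under 0.05, 23 receptor intervals were higher in CREBBP-KO (14.8%, against 18.6% of all tested) and 35 were lower (22.6%, against 18.7%), while 97 were not called. At promoters, including those of neighbouring genes, 17 of 63 were higher (background 25.9%) and 8 were lower (12.7%, against 8.98%). Away from promoters, 6 of 92 were higher (6.52%, against 14.9%) and 27 were lower (29.3%, against 23.6%). The median shift was 0.36 at promoters, where it was 0.20 over all tested promoter intervals, and -0.27 away from them, where it was -0.10 over all. When promoter and other intervals were ranked separately, again an alternative chosen after seeing the data, 8 promoter intervals were higher (background 14.0%) and 11 lower (background 14.1%). Away from promoters, 12 were then higher (background 19.3%) and 24 lower (background 19.4%). Of the 58 called intervals, 30 kept the call under every alternative that could be fitted, 8 of the 23 higher and 22 of the 35 lower. The same count was not made over all tested intervals, so this split cannot be read as particular to the receptors.

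**Figure D2:**
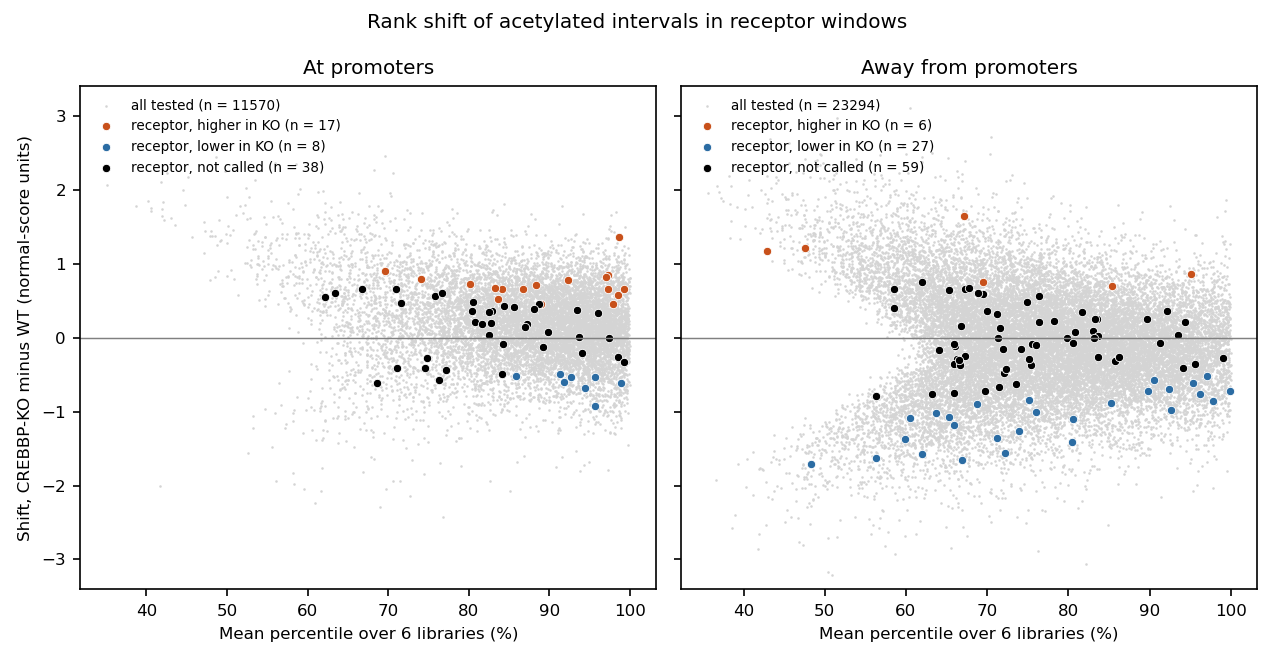
The shift of each tested interval, CREBBP-KO minus WT in normal-score units (y axis), is plotted against its mean percentile over the 6 libraries (x axis, %), at promoters on the left and away from them on the right. Coloured points are receptor intervals that were called, 17 higher and 8 lower on the left and 6 higher and 27 lower on the right, black points are receptor intervals that were not called, and grey points are all tested intervals.

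Of the steroid receptors, NR3C1 showed the clearest difference. NR3C1 encodes the glucocorticoid receptor (ENSG00000113580.15, minus strand, chr5:143277931-143435512). Its highest promoter peak had folds of 20.4, 17.9 and 19.1 in WT and of 36.2, 40.8 and 41.2 in CREBBP-KO. The corresponding percentiles were 97.9, 97.1 and 97.3 against 99.9 in each CREBBP-KO library, so all 3 CREBBP-KO libraries ranked above all 3 WT libraries. The promoter interval, chr5:143393194-143406602, rose by a shift of 1.36 ± 0.18 (SE, adjusted p = 1.01e-05), and the call held under every alternative. The highest peak was no wider in CREBBP-KO, spanning 12430, 12970 and 13089 bp in WT and 11255, 12087 and 12210 bp in CREBBP-KO. Lower ranks were found elsewhere in the locus. Of the 6 other tested intervals in the window 4 fell, none rose and 2 were not called, against 18.7% lower and 18.6% higher over all tested intervals. The 4 are named here after their values were seen. One of the uncalled, 26.7 kb downstream, lay higher in CREBBP-KO without overlap, at 57.8, 61.7 and 32.0 against 64.7, 68.1 and 67.0 (shift 0.39, adjusted p = 0.326). The intron interval 92.3 kb downstream of the start, chr5:143306916-143320011, stood at 88.8, 92.4 and 80.2 in WT and 75.1, 72.0 and 75.2 in CREBBP-KO, a shift of -1.10 ± 0.23 (SE, adjusted p = 0.000882) that held under every alternative. The intervals 62.2, 100.8 and 141.5 kb downstream had shifts of -0.85, -1.02 and -0.62 (adjusted p = 0.0190, 0.0200 and 0.00667), and each of these calls was lost under at least 1 alternative. For the interval at 62.2 kb it was lost without CREBBP-KO replicate 1 or 2 or WT replicate 1 or 3, and for the interval at 100.8 kb without CREBBP-KO replicate 2 or WT replicate 1. The interval at 141.5 kb lost it when ranked separately from promoters (adjusted p = 0.0647). An interval 71.8 kb downstream, too low for the test, lay higher in CREBBP-KO, at 28.3, 18.8 and 9.56 against 54.3, 57.2 and 56.9. The window also held 2 weak intron intervals with a peak in the 3 WT libraries alone, 22.9 kb downstream and 9.0 kb upstream of the start.

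The estrogen receptors had lower acetylation and a different pattern. ESR1, the estrogen receptor alpha gene (ENSG00000091831.25, plus strand, chr6:151656691-152129619), had a single promoter interval, at the start of a transcript 116.2 kb upstream of the canonical start. Its percentiles were 71.5, 41.0 and 57.3 in WT and 8.7, 35.0 and 31.1 in CREBBP-KO. The groups did not overlap, but the folds of at most 6.83 did not pass the filter for the rank test. An ESR1 intron interval 155.7 kb downstream of the start, chr6:151961813-151964177, fell by 1.71 ± 0.33 normal-score units (SE, adjusted p = 0.000527), from 74.5, 68.0 and 57.0 in WT to 29.7, 50.0 and 10.7 in CREBBP-KO. ESR2, the estrogen receptor beta gene, had promoter percentiles of 74.8, 81.7 and 80.3 in WT and 88.5, 87.7 and 83.9 in CREBBP-KO, at a start 44.0 kb upstream of the canonical one, and this promoter interval was not called (shift 0.36, adjusted p = 0.168). Of the 6 tested intervals of ESR2, 4 fell and none rose, against 18.7% lower and 18.6% higher over all tested intervals. The call 210.9 kb downstream, within SYNE2, was lost without WT replicate 1 (adjusted p = 0.0641). The intron interval 31.0 kb upstream stood at 76.7, 68.1 and 67.9 in WT and 47.6, 24.3 and 53.3 in CREBBP-KO (shift -1.63 ± 0.31, adjusted p = 0.000394). That at 28.1 kb downstream stood at 69.1, 74.7 and 77.8 against 52.0, 40.8 and 57.2 (shift -1.58 ± 0.30, adjusted p = 0.000379). In both, all CREBBP-KO values lay below all WT values, and both calls held under every alternative.

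ESRRA, an estrogen-related receptor that drives mitochondrial genes, had promoter percentiles of 68.4, 70.4 and 70.5 in WT and 83.9, 73.2 and 88.1 in CREBBP-KO, without overlap. Its promoter interval was not called (shift 0.56, adjusted p = 0.106), although it was without CREBBP-KO replicate 2 (adjusted p = 0.0203). ESRRG had its highest acetylation inside the gene. The intron interval 122.2 kb downstream of the canonical start, chr1:216600071-216602388, was among the 5 highest receptor intervals outside receptor promoters, at 99.2, 99.4 and 99.4 in WT. In CREBBP-KO it stood at 96.4, 96.5 and 96.3, a fall of 0.86 ± 0.16 normal-score units (SE, adjusted p = 0.000324). A second intron interval 192.1 kb downstream fell too, from 95.8, 98.1 and 96.2 to 86.8, 90.0 and 88.7 (shift -0.98, adjusted p = 0.000176). Both calls held under every alternative.

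The retinoid receptors bind retinoic acid (RARA, RARB, RARG) or act as common dimer partners (RXRA, RXRB, RXRG). RXRB, whose promoter interval also holds the start of SLC39A7, had the highest promoter of the group, at 96.6, 96.6 and 97.3 in WT and 98.7, 99.0 and 99.0 in CREBBP-KO. RXRA stood at 74.9, 82.9 and 78.2 in WT and 90.3, 90.0 and 85.6 in CREBBP-KO. RARA stood at 79.2, 83.8 and 77.1 against 89.9, 88.1 and 90.7. At these promoter peaks of the 3 genes all CREBBP-KO values were above all WT values. A promoter interval was called higher for RXRB (shift 0.45, adjusted p = 0.0312), RXRA (0.53, adjusted p = 0.0435) and RARA (0.91, adjusted p = 0.0155, at a transcript start 36.2 kb downstream of the canonical one). The wider RARA interval at 13.4 kb overlapped between genotypes, at 79.2, 94.1 and 93.5 in WT and 89.9, 88.1 and 90.7 in CREBBP-KO. It was not called (shift -0.13, adjusted p = 0.668), but was lower without WT replicate 1 (shift -0.49, adjusted p = 0.0429). None of the 3 calls held when promoters were ranked separately (adjusted p = 0.0672, 0.264 and 0.149), and each was lost when single libraries were left out, RARA without CREBBP-KO replicate 3, RXRA without CREBBP-KO replicate 1 or 2 or WT replicate 1 or 3, and RXRB without CREBBP-KO replicate 2 or 3 or WT replicate 1 or 2. RARG went the other way, at 87.0, 84.7 and 88.1 in WT and 84.3, 78.4 and 82.6 in CREBBP-KO. Its interval 10.8 kb downstream, where CREBBP-KO replicate 2 stood at 77.9, missed the threshold (shift -0.50, adjusted p = 0.0529) and passed it when promoters were ranked separately (shift -0.78, adjusted p = 0.0222). At the canonical start alone the RARG percentile was higher in CREBBP-KO, by 11.2 points. RARB, itself a retinoic acid target, overlapped between genotypes at its highest promoter peak, with 66.0, 53.8 and 57.5 in WT and 84.0, 74.2 and 64.9 in CREBBP-KO. A lower RARB promoter interval, 741.6 kb upstream of the canonical start, was too low for the rank test. It lay higher in CREBBP-KO without overlap, at 12.7, 21.4 and 27.8 in WT against 53.2, 61.3 and 56.7. Inside the gene, an interval 43.4 kb downstream fell (shift -1.27, adjusted p = 0.00154) and another 153.7 kb downstream rose (shift 0.70, adjusted p = 0.00644), and both calls held under every alternative.

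THRA and THRB encode the thyroid hormone receptors and VDR the vitamin D receptor. The interval at the canonical start of THRA stood at 68.2, 67.8 and 75.3 in WT and 81.3, 84.5 and 82.9 in CREBBP-KO, without overlap, and missed the threshold (shift 0.60, adjusted p = 0.0532; 0.0177 without WT replicate 3). THRB and VDR overlapped between genotypes at their highest promoter peaks, which at VDR lay 22.7 kb downstream of the canonical start. The lower interval at the canonical start of VDR stood at 5.7 and 22.6 in WT replicates 2 and 3. WT replicate 1 had no peak there, and CREBBP-KO stood at 50.3, 38.2 and 47.4. Another THRB promoter interval, 9.2 kb downstream, stood at 65.6, 70.8 and 58.2 in WT. In CREBBP-KO it had a peak in replicate 2 alone, at 39.9. THRB also held the highest receptor interval outside promoters, a wide intron interval 348.4 kb downstream of the start, chr3:24136379-24150738. Its folds overlapped, at 41.0, 34.0 and 35.8 in WT and 32.0, 34.7 and 34.2 in CREBBP-KO, but its mean percentile was 99.97 in WT and 99.78 in CREBBP-KO and its rank fell (shift -0.73 ± 0.21, SE, adjusted p = 0.0104). This call did not survive the ranking by -log10 p. The neighbouring interval 341.0 kb downstream fell from 79.6, 76.5 and 82.1 to 59.7, 64.4 and 64.5 (shift -1.36, adjusted p = 0.000544). An interval 12.9 kb upstream fell from 95.6, 88.0 and 82.9 to 74.0, 72.3 and 69.7 (shift -1.41, adjusted p = 0.000152). For these last 2 the groups did not overlap and the calls held under every alternative. At VDR, the intron interval 37.4 kb downstream likewise fell, from 70.0, 71.4 and 68.7 to 57.2, 47.5 and 44.6 (shift -1.37, adjusted p = 0.000902).

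Among the lipid sensors, the PPAR genes differed from one another. PPARG, the adipogenic member of the fatty acid receptors, which is also expressed in colon, spans chr3:12287368-12434356 on the plus strand (ENSG00000132170.24). Its promoter stood at 94.4, 92.7 and 96.1 in WT and 86.4, 91.7 and 89.6 in CREBBP-KO. The interval at its first start fell by 0.59 ± 0.18 normal-score units (SE, adjusted p = 0.0121), a call that was lost without CREBBP-KO replicate 1 (adjusted p = 0.0796), without WT replicate 3 (adjusted p = 0.0532) and when ranked by -log10 p. Further in, a PPARG exon interval 55.8 kb downstream fell from 82.6, 66.9 and 69.0 to 59.5, 55.6 and 61.7 (shift -1.19, adjusted p = 0.00403). An intron interval 74.7 kb downstream rose from 19.7, 12.5 and 32.2 to 63.9, 64.1 and 64.8 (shift 1.17, adjusted p = 0.00461). Neighbouring intervals of PPARG thus moved in opposite directions, and both calls held under every alternative. PPARD, the broadly expressed member, had promoter percentiles of 80.4, 87.5 and 87.0 in WT and 93.7, 92.8 and 90.5 in CREBBP-KO, with the interval short of the threshold (shift 0.45, adjusted p = 0.0553; 0.0342 without WT replicate 3). PPARD also had neighbouring intron intervals of opposite direction. The one 20.9 kb downstream rose from 25.8, 24.6 and 32.9 to 65.2, 67.1 and 69.9 (shift 1.22, adjusted p = 0.00310), and that at 27.6 kb fell from 98.4, 99.0 and 97.4 to 93.5, 94.4 and 94.8 (shift -0.77, adjusted p = 0.00111). PPARA, a regulator of fatty acid oxidation, had promoter intervals of opposite direction, neither of them called. The one at the canonical start stood at 73.3, 74.1 and 79.0 in WT and 84.4, 87.9 and 84.0 in CREBBP-KO (shift 0.48, adjusted p = 0.0850). The other, 28.6 kb downstream, stood at 78.4, 81.2 and 76.9 against 71.1, 78.7 and 71.3 (shift -0.57, adjusted p = 0.0690), and was lower when promoters were ranked separately (shift -0.83, adjusted p = 0.0306). NR1H2 and NR1H3 encode the oxysterol receptors LXRβ and LXRα. Both had promoter percentiles above WT without overlap, NR1H3 at 84.1, 84.3 and 85.8 against 92.8, 90.0 and 91.8, in an interval 9.4 kb upstream that also holds the ACP2 promoter. Neither had a called promoter interval, and at the canonical start alone NR1H3 differed by -1.69 points. The largest upward shift of any receptor interval away from promoters lay 23.7 kb upstream of NR1H3, inside the neighbouring gene DDB2 (chr11:47232284-47237361). It rose from 62.9, 48.5 and 41.4 in WT to 86.7, 87.3 and 76.4 in CREBBP-KO (shift 1.64 ± 0.29, SE, adjusted p = 0.000236).

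The clock receptors repress (NR1D1, NR1D2) or activate (RORA) the genes of the core clock. NR1D2, encoding REV-ERBβ, shares its promoter interval with NKIRAS1 and stood at 97.6, 98.0 and 97.4 in WT and 99.4, 99.6 and 99.3 in CREBBP-KO. It rose by a shift of 0.58 ± 0.16 (SE, adjusted p = 0.00846), and the call held under every alternative. NR1D1, encoding REV-ERBα, overlapped between genotypes at its promoter (97.0, 95.8 and 90.1 in WT, 94.6, 92.5 and 94.1 in CREBBP-KO). RORA had promoter peaks at a pair of starts. The interval at the start of a short transcript, 638.0 kb downstream of the canonical start, stood at 68.7, 65.5 and 57.5 in WT and 83.6, 74.0 and 76.6 in CREBBP-KO and was not called (shift 0.66, adjusted p = 0.0598). The interval at the canonical start stood at 52.6, 57.9 and 43.6 against 79.2, 77.2 and 60.5 and was too low for the rank test. RORA had more intervals than any other receptor, 52 over a body of 741 kb. Of its 11 tested intervals, 4 fell and 1, at the promoter of ICE2, rose, against 18.7% lower and 18.6% higher over all tested intervals. The calls at 256.0 and 476.5 kb and at ICE2 were each lost under 7 or more alternatives, among them most of those that left out a single library, whereas the calls at 469.9 and 705.6 kb held under every alternative. The intron interval 469.9 kb downstream, chr15:60757444-60761670, fell from 82.0, 80.2 and 83.6 to 67.5, 61.6 and 58.5 (shift -1.57 ± 0.26, SE, adjusted p = 0.000135). The RORA window also held 4 of the intervals found in CREBBP-KO alone, the highest of them at 75.7, 58.6 and 59.4, 515.9 kb downstream.

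The NR2 orphan receptors included the broadest domains of the family. NR2F2 (COUP-TFII) lay under single promoter peaks of 26771 to 27268 bp in the 6 libraries and NR2F1 (COUP-TFI) under peaks of 15347 to 18456 bp. NR2F2 stood at 99.8, 99.3 and 99.4 in WT and 97.9, 99.3 and 99.6 in CREBBP-KO, with overlapping groups. NR2F1 (ENSG00000175745.15, plus strand, chr5:93583222-93594611) stood at 96.9, 94.3 and 94.5 against 99.1, 99.5 and 99.3, and its promoter interval rose (shift 0.85 ± 0.17, SE, adjusted p = 0.000503). This call was lost in the ranking by -log10 p (shift 0.22, adjusted p = 0.271). The interval 18.1 kb upstream of NR2F1, chr5:93563000-93566745, fell from 78.6, 83.8 and 73.6 to 45.9, 64.6 and 55.0 (shift -1.66 ± 0.29, SE, adjusted p = 0.000199) under every alternative. NR2F6, a receptor known from lymphocytes, had promoter percentiles of 75.4, 82.1 and 74.1 in WT and 88.4, 91.7 and 87.8 in CREBBP-KO. Its interval rose (shift 0.66, adjusted p = 0.0130), but not without CREBBP-KO replicate 2 (adjusted p = 0.0780) nor when promoters were ranked separately (adjusted p = 0.117). NR2C1 and NR2C2, the testicular receptors TR2 and TR4, had no called promoter interval of their own.

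The NR4A genes are immediate-early genes, induced within minutes by growth factors and stress, and their products act without a classical ligand. NR4A1 (ENSG00000123358.20, plus strand, chr12:52022832-52059507) had promoter percentiles of 97.5, 98.6 and 99.0 in WT and 95.6, 91.6 and 91.6 in CREBBP-KO, from folds of 19.6, 21.0 and 23.3 against 17.2, 14.3 and 14.9. All CREBBP-KO libraries were below all WT libraries. Both of its tested promoter intervals fell, that 14.0 kb upstream of the canonical start by 0.92 ± 0.17 (SE, adjusted p = 0.000357) and that at the canonical start by 0.68 ± 0.17 (SE, adjusted p = 0.00307). Over all tested promoter intervals 8.98% were lower. An intron interval 18.0 kb upstream fell as well (shift -0.69, adjusted p = 0.00460), and these 3 calls held under every alternative. The neighbouring ATG101 promoter, 18.4 kb downstream, rose in the same libraries from 98.8, 99.0 and 98.6 to 99.8, 99.8 and 99.7 (shift 0.65, adjusted p = 0.00627), a call lost in the ranking by -log10 p. NR4A2 (ENSG00000153234.16, minus strand, chr2:156324437-156342348) stood at 99.5, 99.6 and 99.5 in WT and 98.4, 98.7 and 97.8 in CREBBP-KO. Both of its tested intervals fell, against 18.7% of all tested intervals. The upstream one, at -9.4 kb, did so under every alternative (shift -0.62, adjusted p = 0.00618), whereas the call at -1.9 kb (shift -0.54, adjusted p = 0.0214) was lost without CREBBP-KO replicate 2 or 3 or WT replicate 3. NR4A3 did not share the difference, with overlapping percentiles of 95.8, 96.8 and 98.8 in WT and 98.4, 98.2 and 96.1 in CREBBP-KO and a shift of 0.0002 ± 0.18 (SE, adjusted p = 0.999). The difference between NR4A3 and the other two members was not tested.

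Of the other orphan receptors, NR6A1, a germ cell factor, was the only one with a promoter peak in all 6 libraries. It stood at 88.4, 88.6 and 88.4 in WT and 87.5, 82.7 and 79.3 in CREBBP-KO, and its promoter interval fell (shift -0.51, adjusted p = 0.0364). That call is fragile, since leaving out any library except CREBBP-KO replicate 1 ended it. Away from the promoter an intron interval 112.4 kb downstream rose from 96.0, 94.9 and 83.6 to 98.9, 98.8 and 98.0 (shift 0.86, adjusted p = 0.00239), and another at 196.0 kb fell (shift -1.07, adjusted p = 0.00466), both under every alternative.

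Intervals of a single genotype were few in the receptor windows. A peak was found in all 6 libraries at 232 of the 530 intervals (43.8%, against 36.3% of all intervals), in the 3 CREBBP-KO libraries alone at 17 (3.21%, against 2.66%) and in the 3 WT libraries alone at 6 (1.13%, against 1.08%). The intervals of a single genotype were low, and the highest percentile any of them reached was 75.7. Beside those of RORA, the CREBBP-KO ones lay at RXRA (3), PPARG (2), NR2C2 (2), ESR1, NR3C2, ESRRA, RARA, VDR and PPARA. The WT ones lay at NR3C1 (2), ESRRG (2), RARB and, within SYNE2, at ESR2. Of the 232 intervals with a peak in all 6 libraries, the CREBBP-KO percentiles lay above WT without overlap at 66 (28.4%, against 28.9%) and below at 40 (17.2%, against 12.1%). At the 161 of these away from promoters, 30 lay above (18.6%, against 24.4%) and 31 below (19.3%, against 13.5%).

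Sequence is shown for intervals away from promoters that fell and for promoters of receptors that rose or fell. Promoter sequence comes from the RefSeq table (GRCh38.p14), in which 39 of the 43 receptors were matched, and holds the 250 bases before the RefSeq start. Interval sequence is the 300 bases around the summit of the highest library, on the plus strand of hg38. Capitals mark the searched motifs: the nuclear receptor core motif AGGTCA, the AP-1 motif TGACTCA and the cAMP response element TGACGTCA, each searched on both strands, the last added after values had been seen.
NR2F1 promoter, chr5:93582972-93583221, plus strand: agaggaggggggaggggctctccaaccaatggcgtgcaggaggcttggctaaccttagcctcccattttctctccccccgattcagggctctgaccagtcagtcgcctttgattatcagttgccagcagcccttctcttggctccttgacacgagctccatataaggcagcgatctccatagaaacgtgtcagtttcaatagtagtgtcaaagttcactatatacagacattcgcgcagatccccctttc
PPARG promoter, chr3:12287118-12287367, plus strand: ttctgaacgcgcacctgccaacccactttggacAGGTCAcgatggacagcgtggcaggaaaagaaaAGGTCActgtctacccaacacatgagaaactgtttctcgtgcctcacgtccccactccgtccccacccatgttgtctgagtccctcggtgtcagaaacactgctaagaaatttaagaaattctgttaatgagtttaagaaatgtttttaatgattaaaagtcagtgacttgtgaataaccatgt
NR6A1 promoter, chr9:124771312-124771561, minus strand: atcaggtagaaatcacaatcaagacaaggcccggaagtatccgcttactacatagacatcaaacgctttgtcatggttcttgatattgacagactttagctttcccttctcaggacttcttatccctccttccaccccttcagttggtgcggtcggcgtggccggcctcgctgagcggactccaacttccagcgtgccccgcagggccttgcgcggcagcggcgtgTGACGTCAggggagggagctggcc
NR2F1 interval 18.1 kb upstream, chr5:93564936-93565235: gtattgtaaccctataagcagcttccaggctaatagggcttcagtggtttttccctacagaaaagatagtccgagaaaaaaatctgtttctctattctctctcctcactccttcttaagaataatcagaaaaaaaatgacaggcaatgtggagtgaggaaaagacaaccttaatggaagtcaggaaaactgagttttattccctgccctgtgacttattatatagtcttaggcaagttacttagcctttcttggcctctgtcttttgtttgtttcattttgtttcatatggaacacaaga
RORA interval 469.9 kb downstream, chr15:60759274-60759573: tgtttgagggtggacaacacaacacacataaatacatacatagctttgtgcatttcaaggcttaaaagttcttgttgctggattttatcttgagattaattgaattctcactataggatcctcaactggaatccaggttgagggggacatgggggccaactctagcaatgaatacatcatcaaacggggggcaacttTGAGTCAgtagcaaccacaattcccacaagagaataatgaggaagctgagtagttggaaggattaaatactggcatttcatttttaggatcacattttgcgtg
ESRRG interval 122.2 kb downstream, chr1:216601036-216601335: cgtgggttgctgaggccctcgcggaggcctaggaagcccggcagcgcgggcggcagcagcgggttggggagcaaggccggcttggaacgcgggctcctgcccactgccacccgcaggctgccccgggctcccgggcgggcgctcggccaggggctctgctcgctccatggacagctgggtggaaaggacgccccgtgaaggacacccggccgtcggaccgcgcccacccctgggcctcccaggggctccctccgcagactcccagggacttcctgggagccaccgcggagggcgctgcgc

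AGGTCA occurred in the promoter sequence of 6 of 39 receptors, with 2 copies at PPARG, against 10.1% of all 15345 protein-coding promoters of the same length. TGACTCA occurred at 3 of 39 (all promoters 3.17%) and TGACGTCA at 2 of 39, NR6A1 and NR2E1 (all promoters 2.36%). In the 300-base windows of the 15 named intervals, AGGTCA was not found (17.1% of all 34847 tested windows with a sequence). TGACTCA was found at 2 (5.02% of all), the RORA interval that fell and the PPARG interval 74.7 kb downstream that rose. The longer glucocorticoid response element (AGAACA facing its own reverse complement across 3 bases) and the direct repeat of AGGTCA with a gap of 1 base were found in none of the receptor sequences, and in 0.0143% of all tested windows each. The windows also differed in base composition. The ESRRG window had 76.0% GC and 30 CpG dinucleotides and the RORA window 40.3% and 2, against medians of 48.3% and 4 over all tested windows.

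The promoters of genes that act with or downstream of the receptors were compared by the same percentiles. The lists were drawn up for this purpose with earlier results of these data known. Counts of promoters with a peak stand beside the 61.7% of all protein-coding genes with one in all 6 libraries and the 32.3% with none. The counts above and below WT are to be read against the 45.0% of all promoters that lay above WT and the 7.71% below, with a median difference of 3.26 points. When ranked among promoters, they are to be read against 21.7% above and 20.5% below. Of 12 coregulators, 10 had a peak in all 6 libraries, and of these 7 lay above WT without overlap and 1 below, the median difference being 5.37 points (5 above and 1 below when ranked among promoters). NRIP1, a corepressor induced by several receptors, was the member below, at 97.1, 98.9 and 98.6 against 93.7, 95.9 and 96.3. EP300, the paralogue of CREBBP, overlapped at 99.1, 99.5 and 99.3 against 99.6, 99.4 and 99.4.

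All 9 glucocorticoid targets had a promoter peak in all 6 libraries, 5 above WT and 1 below (background 45.0% and 7.71%). Their median difference of 1.83 points was below the 3.26 over all promoters. KLF9, a direct glucocorticoid receptor target, stood at 97.1, 96.9 and 98.9 in WT and 100.0, 99.5 and 99.9 in CREBBP-KO, and FKBP5, a chaperone of the receptor, at 97.8, 97.0 and 97.1 against 99.2, 99.4 and 98.8. The member below was DUSP1, a MAP kinase phosphatase that is also an immediate-early gene, at 99.4, 99.3 and 99.8 against 98.8, 98.0 and 97.9. Ranked among promoters only, 3 of the 9 lay above and 1 below.

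Of 7 retinoic acid targets, 3 had a peak in all 6 libraries. DHRS3, which reduces retinal, stood at 29.3, 52.5 and 62.4 in WT and 77.7, 81.8 and 83.0 in CREBBP-KO, and CRABP2, a carrier of retinoic acid, at 62.3, 67.4 and 59.0 against 78.5, 79.4 and 80.6. TGM2, a transglutaminase, overlapped at 12.0, 70.6 and 72.7 against 60.8, 81.5 and 76.5. The CYP26A1 and CYP26B1 promoters, of enzymes that degrade retinoic acid, had no peak in any library. Of the 4 vitamin D targets 0 had a peak in all 6 libraries, and CYP24A1 had one in 2 CREBBP-KO libraries, at 21.4 and 15.9.

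Of 11 PPAR and LXR targets, 5 had a peak in all 6 libraries, 2 above WT and 1 below (background 45.0% and 7.71%). Ranked among promoters, 2 lay above and 2 below, the added one being PLIN2, a lipid droplet protein. ANGPTL4, a lipase inhibitor, stood at 32.7, 42.0 and 41.3 in WT and 69.8, 71.2 and 75.6 in CREBBP-KO, and SREBF1, a regulator of lipid synthesis, at 96.2, 93.9 and 98.7 against 90.2, 87.2 and 87.0. ABCG1, a cholesterol exporter, had a promoter peak in the CREBBP-KO libraries alone, at 42.2, 48.5 and 39.5. Of 6 bile acid and xenobiotic targets, 3 had a peak in all 6 libraries. The drug exporter ABCB1 lay below WT, at 57.4, 74.0 and 65.0 in CREBBP-KO against 87.1, 90.1 and 86.7 in WT. The bile acid carrier FABP6 lay above WT (82.6, 81.1 and 83.9 in WT against 90.9, 86.6 and 90.7). When ranked among promoters, ABCB1 stayed below and FABP6 overlapped. All 8 REV-ERB and ROR targets had a promoter peak in every library, 4 above WT and 0 below (background 45.0% and 7.71%), and 1 above and 1 below when ranked among promoters. BMAL1, the core clock activator, was among the 4, at 69.2, 69.2 and 70.9 in WT and 77.5, 78.2 and 74.0 in CREBBP-KO. Ranked among promoters BMAL1 overlapped, while TEF lay above and CRY1 below.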

How the data were processed

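The data were H3K27ac ChIP-seq peak lists of 3 WT and 3 CREBBP-KO libraries, and the 2 input libraries were not analysed here. The authors ran the nf-core ChIP-seq pipeline (BWA is named in the submitters' processing notes) on hg38, with narrow peaks from MACS2 in each library and no pooling. The deposited fold of a peak is a linear ratio over local background, and the deposited significance is a -log10 p-value and -log10 q-value. The integer score in the deposited lists, which MACS2 derives from the q-value, was not used. Whether the lists precede the downsampling the methods describe, and which input was the control, are not given in the sources used here. Lists hold no read counts, so depth is unknown and no counting interval was computed. P-values measure the spread between these libraries, which may be partly technical.

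Peaks were merged across lists in Python, and the number of merged intervals equalled that given by bedtools 2.31.1. They were assigned to genes and promoters with GENCODE release 44. Percentiles were ranks of fold within a list. Intervals with a peak in all 6 libraries and fold at least 5 in all libraries of a genotype were fitted with limma 3.58.1 (lmFit, eBayes with trend, R 4.3.3) on normal scores, with Benjamini-Hochberg adjustment over all 34864 intervals. The paper's read-based DiffBind test was not repeated. For single values a two-sided exact permutation test was used (scipy 1.17.1). Alternatives changed the promoter window, fold filter, ranking measure, flank, list length, trend, replicate block and the libraries included, and ranking among promoters was added after seeing the data. The fit was also run on simulated scores with planted shifts. Those scores were drawn independently for each interval and library, unlike the ranked data, so the run is not used in support of the calls. Non-promoter intervals were named by rule: per direction the 5 largest shifts past the threshold without overlap, the 5 highest means, and those of a single genotype. Called intervals outside this rule were chosen after their values were seen. The members and lists were chosen with earlier results of these data known. Some items are not reported here.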

Additional observations from a re-analysis of the deposited data

How the results depend on the processing

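The counts of receptor intervals called higher (23) and lower (35) moved with what was ranked and counted. Ranking by -log10 p left 10 higher, gene bodies without flanks gave 12 and flanks of 50 kb gave 37, while a fold of at least 10 gave 20 lower. The flank and the fold filter also changed how many intervals were tested. Shares over all intervals under these settings are not given, so the changes cannot be read as particular to the receptors. Leaving out single libraries gave 18 to 29 higher and 31 to 34 lower. Intervals in CREBBP-KO alone (17) numbered 11 at a -log10 q of at least 5, 8 in lists cut to equal length and 20 to 31 when single libraries were left out, and those in WT alone (6) numbered 8 to 13, the construction then asking for fewer libraries. The median promoter difference of 4.07 points was 1.11 in the ranking by -log10 p and 2.74 to 5.65 when single libraries were left out. The number of promoters above WT, 17, was 6 when ranked among promoters. The difference in receptor promoters with a peak, 0.667 per library, became -0.167 without WT replicate 3 (the other libraries left out gave 0.333 to 1.33). Single promoter differences that changed sign were NR1H2 (-1.07) and NR2C2 (-0.349) in the ranking by -log10 p, NR1H3 (-1.69) and RARG (11.2) at the canonical start alone, and NR2C1 (-2.63) among promoters. The cause was not tested. Whether replicate numbers pair the libraries was not settled. Correlations of same-numbered deviations were 0.0108, 0.0144 and 0.0284, and those of unlike numbers ran from -0.0248 to 0.0118. WT replicate 1 correlated best with CREBBP-KO replicate 2 (0.0118), while every other library correlated best with its own number. With the replicate block the fit gave 23 higher and 36 lower, and no interval named here changed its call. The remaining counts stayed within 1.5 times the main value, and over single intervals 123 comparisons with an alternative lost a call, 16 gained one and 1013 stayed on their side of the threshold, called or not.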
